A study of Homo sapiens with 6 samples.

Results

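The aminoacyl-tRNA synthetases, the enzymes that load each amino acid onto its transfer RNA, were described in MOLM-13, a human acute myeloid leukaemia line with the MLL-AF9 translocation, after knockdown of LAMP5. The genes were chosen by name: 19 cytosolic synthetase subunits, 16 mitochondrial synthetases and the scaffold proteins AIMP1 and AIMP2, 37 genes in all. Each matched 1 of the 39771 gene rows of the table, of which 29895 carried a symbol. A lentivirus delivered the hairpin RNA: in 4 libraries it targeted LAMP5 (shLAMP5), and in 2 it had no target (shNT). Puromycin selection followed in all 6, so both groups carry a hairpin vector. The sources used here do not give the hairpin or harvest time of any single library, and the protocol speaks of several times, so the shLAMP5 SD may mix hairpins or times. They also do not say whether the cultures were separate, and every p-value below rests on a spread among libraries that may be technical.

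As a rule, each synthetase joins 1 amino acid to its cognate transfer RNA at the cost of ATP, and the charged transfer RNA is then carried to the ribosome by an elongation factor. Animal cells hold a cytosolic set, part of which is bound in the multi-synthetase complex around the AIMP scaffolds, and a mitochondrial set that is encoded in the nucleus and serves translation of the mitochondrial genome. KARS1 and GARS1 each encode enzymes for both compartments. When charged transfer RNA runs short, the kinase GCN2 (EIF2AK4) phosphorylates the initiation factor eIF2, translation of the transcription factor ATF4 rises, and ATF4 induces genes of amino acid supply, among them many cytosolic synthetases. ATF4 binds with C/EBP partners at a composite DNA element, and MYC binds with MAX at the E-box.

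Promoter sequences come first because the cytosolic genes differ in whether they hold the word of that element. The word TGATGNAAN, the core of the C/EBP-ATF response element, was searched on both strands of windows from 250 bases before to 50 bases after the gene start, which RefSeq on GRCh38.p14 gives for 32 of the 37 genes. It was found in 8 of the 32 (25.0%), against 4.45% of the 27305 genes with a window. The holders were AARS1, CARS1, GARS1, IARS1, MARS1, NARS1, TARS1 and the mitochondrial YARS2. All 7 cytosolic holders belong to a list of 13 synthetases known as ATF4-linked, of which 10 had a window, while 0 of the 6 other cytosolic subunits (FARSA, FARSB, HARS1, KARS1, QARS1 and RARS1) held the word. That list came from general knowledge of ATF4 targets, which rests in part on such elements, and a match describes the letters and is not evidence of binding. The 30 bases around each match follow, read on the strand that carries the word, with the word in capitals.
AARS1: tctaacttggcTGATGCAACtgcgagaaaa
CARS1: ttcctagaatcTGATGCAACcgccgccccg
IARS1: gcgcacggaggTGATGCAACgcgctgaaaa
MARS1: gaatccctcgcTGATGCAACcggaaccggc
NARS1: ctacgctctcTGATGCAACgccggaatcgc
TARS1: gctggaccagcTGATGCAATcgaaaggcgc
GARS1: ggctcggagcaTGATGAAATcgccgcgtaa
YARS2: tccacactgcTGATGGAAAaattaagttta
The same 9 letters, TGATGCAAC, occurred in AARS1, CARS1, IARS1, MARS1 and NARS1. Read in the gene's direction, the match began 188 bases upstream of the start in AARS1, 34 in GARS1 and 14 in IARS1. In MARS1 and CARS1 it spanned the start, in TARS1 and NARS1 it lay just downstream, and in YARS2 it began 197 bases upstream. In position these stretches are chr16:70289675-70289704 on the plus strand for AARS1, chr11:3057407-3057436 plus for CARS1, chr9:92293692-92293721 plus for IARS1 and chr12:57488053-57488082 minus for MARS1. NARS1 is at chr18:57621803-57621832 minus, TARS1 at chr5:33440956-33440985 minus, GARS1 at chr7:30594834-30594863 minus and YARS2 at chr12:32756075-32756104 minus.

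For AARS1, the holder whose match lies farthest upstream among the cytosolic genes, the 250 bases before the start are shown on the gene's own strand (chr16:70289507-70289756, minus, GRCh38.p14), where the word appears as its reverse complement in capitals.
AARS1 upstream: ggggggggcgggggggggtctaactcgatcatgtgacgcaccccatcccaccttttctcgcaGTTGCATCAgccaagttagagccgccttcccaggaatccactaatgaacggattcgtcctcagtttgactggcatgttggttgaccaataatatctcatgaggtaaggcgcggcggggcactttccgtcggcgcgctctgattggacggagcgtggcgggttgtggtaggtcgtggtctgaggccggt

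The E-box word CACGTG was present in the windows of 5 of the 32 genes (15.6%), AIMP2, CARS2, EARS2, IARS1 and MARS2, against 8.78% of all genes with a window. All 4 shLAMP5 values lay below both shNT values for 3 of the 5 (AIMP2, IARS1 and MARS2), as for 13.5% of all genes tested, while the groups overlapped for CARS2 and EARS2. With 5 genes this is a description and nothing is read from it. The matches of MARS2 and AIMP2 are shown as examples, chosen after the values were seen.
MARS2 (chr2:197705348-197705377, plus): gcgcctctcaCACGTGctgtcagaacgccg
AIMP2 (chr7:6009480-6009509, plus): gggcgctggcCACGTGcaggtaggagcgcg

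All 37 genes were expressed in every library, from 3.20 TPM (VARS2) to 353 TPM (WARS1), and all passed the filter of at least 1 TPM in at least 2 libraries. TPM is a transcript's share of the library per length, so levels of different genes can be compared. The cytosolic threonyl enzyme TARS1 averaged 265 TPM over the 6 libraries, the tryptophanyl enzyme WARS1 245, the glutaminyl enzyme QARS1 219, the lysyl enzyme KARS1 144 and EPRS1, which charges both glutamate and proline, 130. VARS1, the valyl enzyme, was the lowest cytosolic member at 11.9 TPM. The mitochondrial set was led by the isoleucyl enzyme IARS2 (67.4 TPM) and the cysteinyl enzyme CARS2 (58.5 TPM), and ended with VARS2 (4.45 TPM) and the prolyl enzyme PARS2 (4.02 TPM). Of 13 amino acids with 1 gene for each compartment, the cytosolic gene had the higher mean level in 12. The ratio of cytosolic to mitochondrial level had a median of 4.54, reached 22.1 for tryptophan, and was 0.558 for cysteine, the exception.

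LAMP5 itself measured 80.6, 65.6, 68.8 and 86.7 TPM in shLAMP5 1 to 4, against 170 and 282 TPM in shNT 1 and 2, which is the direction of the labels. The log2 fold change was -1.54 with a limma adjusted p of 0.252, and an exact permutation test (two-sided) gave 0.0667, which is as low as 15 splits can go. Over the 13072 genes tested, limma called 0 at an adjusted p of 0.05, and 486 higher and 686 lower at an unadjusted p under 0.05. The shLAMP5 libraries were not alike. With all tested genes, shLAMP5 2 lay a median 0.28 below the mean of the other shLAMP5 libraries on the log2(TPM + 1) scale, and its median scaling factor was 0.826, against 0.998 to 1.07 in the other libraries. All 8 myeloid leukaemia markers reached 1 TPM in at least 1 library, though KIT was at 0.65 TPM in shLAMP5 1 and 0.92 TPM in shNT 2. The 8 summed to 1869 to 10319 TPM in shLAMP5 and 2496 to 6598 TPM in shNT. Most of each sum was LYZ, at 1397 to 9730 TPM in shLAMP5 and 1984 to 6062 TPM in shNT. In contrast, none of 5 erythroid and none of 4 megakaryocytic markers reached 1 TPM, and the megakaryocytic PF4 and PPBP were at 0 throughout. Of the others, 1 of 6 listed T cell markers, 1 of 5 B cell markers and 3 of 8 packaging cell or fibroblast markers reached it. TRAC, among the listed T cell markers, was absent from the data and so was not measured. The packaging cell and fibroblast sum was 26.9 to 38.8 TPM in shLAMP5 and 29.5 to 31.9 TPM in shNT.

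Most synthetases of both compartments had somewhat lower values in the shLAMP5 libraries, and no member passed the test. Of the 37 genes, 31 (83.8%) had a negative log2 fold change (shLAMP5 minus shNT), where 50.7% of all genes tested did, and 6 had a positive one, against 49.3% of all genes tested. The median was -0.22, against -0.0060 over all genes tested, and members ranged from -0.69 (LARS2) to 0.36 (WARS1). At the adjusted threshold 0 of 37 members were called, as were 0% of all genes in either direction. The smallest limma adjusted p among members was 0.524. At an unadjusted limma p under 0.05, 2 members (5.41%) were lower, LARS2 and FARSA, near the 5.25% of all genes, and 0 were higher, against 3.72% of all genes. After median scaling the lower members numbered 7 (18.9%), against 6.14% of all genes. No shLAMP5 value reached either shNT value for 9 members (24.3%), against 13.5% of all genes, and every shLAMP5 value exceeded both shNT values for 0 members, against 8.25%. After median scaling these counts were 12 members (32.4%), against 13.3% of all genes, and 0, against 12.6%. In bulk RNA, fewer cells of a kind and less RNA per cell cannot be told apart.

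**Figure D1:**
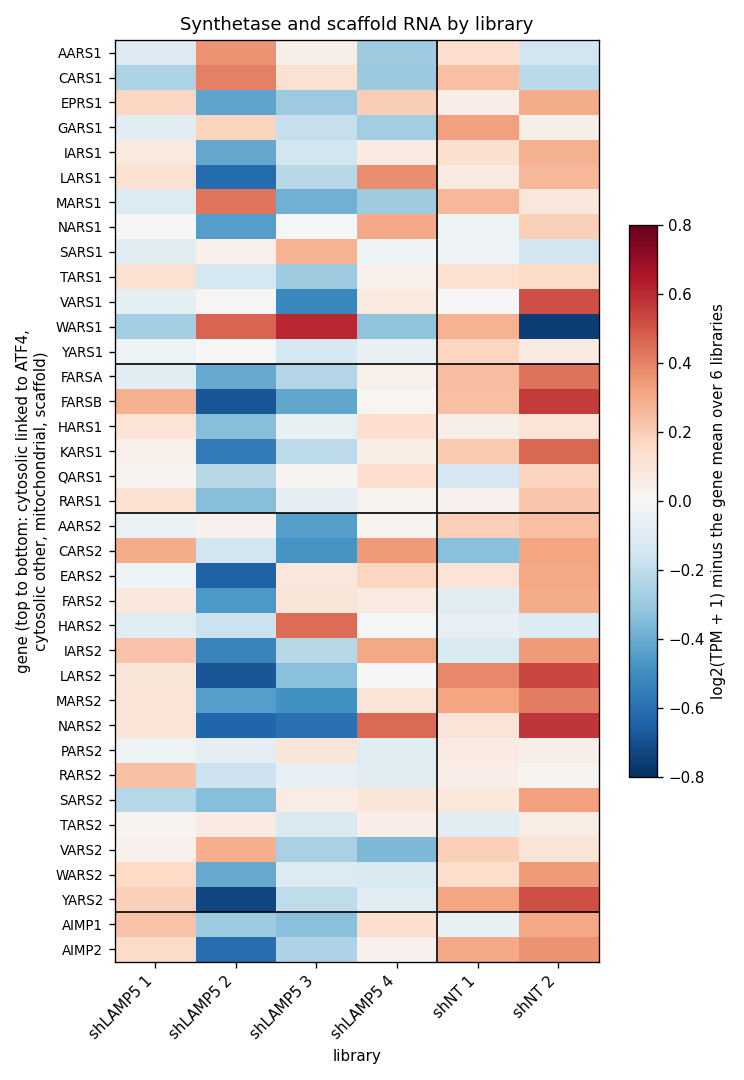
Colour shows log2(TPM + 1) of each gene in each library minus the gene's mean over the 6 libraries; columns are libraries, rows are genes in 4 blocks. In shLAMP5 2, 21 of the 37 rows have their lowest value and 5 their highest (AARS1, CARS1, MARS1, TARS2 and VARS2). Other rows above their mean there include GARS1 and WARS1.

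Summed over the 19 cytosolic genes, synthetase RNA was 1988, 1874, 1950 and 2006 TPM in shLAMP5 1 to 4, against 2171 and 2151 TPM in shNT 1 and 2, so the groups did not overlap on the deposited scale. After median scaling the sum was 1867, 2268, 1897 and 1905 in shLAMP5 1 to 4, against 2177 and 2059 in shNT 1 and 2. On that scale shLAMP5 2 was the highest library, so the absence of overlap depends on the scaling. Over the 16 mitochondrial genes the sum was 391, 291, 324 and 396 TPM in shLAMP5 1 to 4, against 360 and 436 TPM in shNT 1 and 2, and the groups overlapped. Proliferation genes stood farther apart. As log2(TPM + 1), 14 cell cycle genes averaged 5.57, 5.30, 4.77 and 5.31 in shLAMP5 1 to 4, against 6.32 and 6.28 in shNT 1 and 2. Every shLAMP5 value lay below both shNT values for all 14, against 13.5% of all genes tested. After median scaling this held for 13 of them, against 13.3% of all genes tested. The log2 fold changes were -1.05 for the mitotic kinase AURKA and -1.35 for the topoisomerase TOP2A (limma adjusted p 0.366 and 0.387). On the same scale the 19 cytosolic synthetases averaged 6.42, 6.28, 6.31 and 6.42 in shLAMP5 1 to 4, against 6.55 and 6.56 in shNT 1 and 2. The part of proliferation in the synthetase values was not tested.

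Among the cytosolic enzymes, 16 of 19 had negative values and the median log2 fold change was -0.20. The phenylalanyl enzyme is built of alpha and beta subunits, encoded by FARSA and FARSB, and these had the lowest log2 fold changes of the cytosolic set. FARSA (ENSG00000179115) measured 96.4, 77.5, 87.0 and 106 TPM in shLAMP5 1 to 4, against 122 and 139 TPM in shNT 1 and 2. Every shLAMP5 library lay below both shNT libraries, and the mean was 91.7 ± 12.2 TPM (SD, n = 4) in shLAMP5 against 131 ± 11.8 TPM (SD, n = 2) in shNT (log2 fold change -0.51, SE 0.20, limma adjusted p 0.528). FARSB measured 45.6, 22.9, 27.7 and 37.8 TPM in shLAMP5 1 to 4, against 44.3 and 55.4 TPM in shNT 1 and 2. Here shLAMP5 1 lay above shNT 1, so the groups overlapped (log2 fold change -0.60, SE 0.29, limma adjusted p 0.590).

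KARS1 (ENSG00000065427), which charges lysine in both compartments, measured 144, 95, 121 and 146 TPM in shLAMP5 1 to 4, against 163 and 193 TPM in shNT 1 and 2. The groups did not overlap, and the log2 fold change was -0.50 (SE 0.23, limma adjusted p 0.569). The other cytosolic genes whose groups did not overlap were IARS1 and YARS1, the isoleucyl and tyrosyl enzymes, with smaller log2 fold changes of -0.31 and -0.18 (limma adjusted p 0.684 and 0.783). SARS1, the seryl enzyme, had a positive value, with 64.5, 71.1, 84.1 and 67.6 TPM in shLAMP5 1 to 4 against 67.5 and 62.3 TPM in shNT 1 and 2. Its groups overlapped, and the log2 fold change was 0.14 (SE 0.19, limma adjusted p 0.863).

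Components of the multi-synthetase complex all had negative values, 9 of 9, with a median log2 fold change of -0.26. The scaffold AIMP2, which holds the lysyl enzyme in the complex, measured 46.4, 27.0, 34.9 and 42.8 TPM in shLAMP5 1 to 4, against 51.7 and 53.7 TPM in shNT 1 and 2. All 4 shLAMP5 libraries were lower than both shNT libraries (log2 fold change -0.50, SE 0.25, limma adjusted p 0.591). AIMP1, the other scaffold, overlapped between the groups (log2 fold change -0.19). QARS1 measured 221, 187, 222 and 239 TPM in shLAMP5 1 to 4, against 198 and 247 TPM in shNT 1 and 2. Its groups overlapped, its log2 fold change of -0.030 was the closest to 0 in the complex, and leaving out 1 library or changing the scaling turned its sign. LARS1, EPRS1, MARS1 and RARS1 had -0.25, -0.26, -0.26 and -0.19, none past the test.

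TARS1, the most abundant member, measured 287, 239, 216 and 271 TPM in shLAMP5 1 to 4, against 286 and 291 TPM in shNT 1 and 2. Only shLAMP5 1 came between the shNT values (log2 fold change -0.20, SE 0.18, limma adjusted p 0.782). NARS1, the asparaginyl enzyme, measured 116, 85.4, 116 and 144 TPM in shLAMP5 1 to 4, against 113 and 133 TPM in shNT 1 and 2. Its shLAMP5 libraries spread on both sides of the shNT libraries (log2 fold change -0.12, limma adjusted p 0.914).

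**Figure D2:**
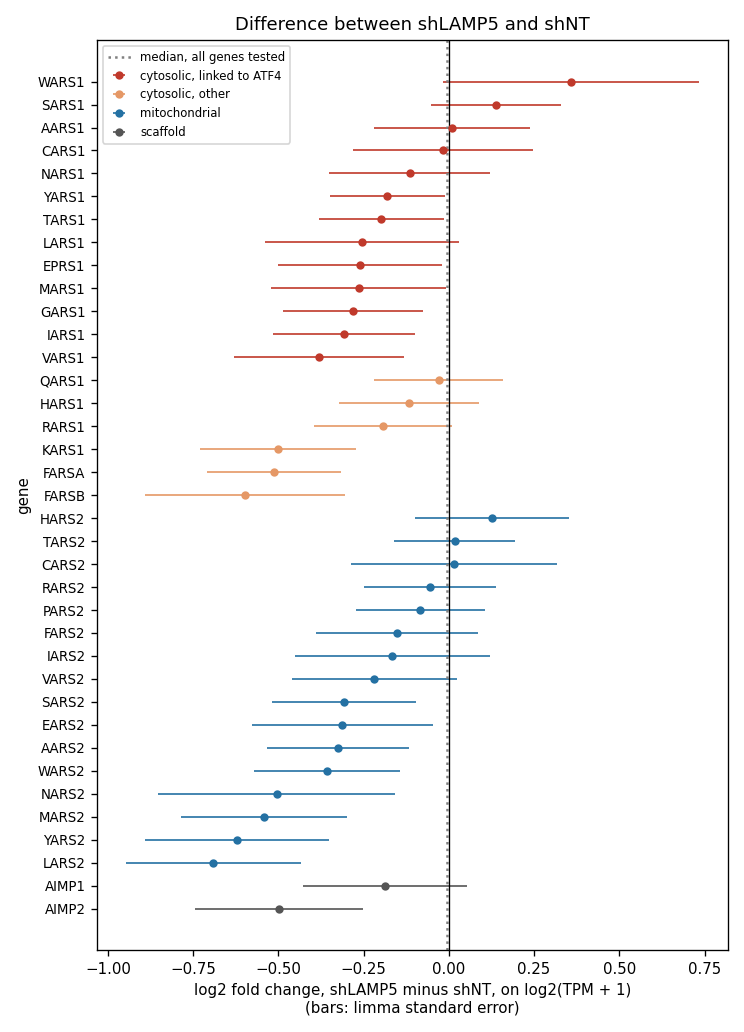
Points are log2 fold changes (shLAMP5 minus shNT) on log2(TPM + 1) and bars are limma standard errors, by class; the dotted line is the median of all genes tested. Most points lie left of 0, from -0.69 for LARS2 to 0.36 for WARS1.

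Among the mitochondrial enzymes, 13 of 16 had negative values, with a median of -0.26. LARS2 (ENSG00000011376), the mitochondrial leucyl enzyme, measured 12.4, 6.81, 8.95 and 11.6 TPM in shLAMP5 1 to 4, against 15.4 and 17.2 TPM in shNT 1 and 2. Its mean was 9.95 ± 2.57 TPM (SD, n = 4) in shLAMP5 against 16.3 ± 1.26 TPM (SD, n = 2) in shNT, with no overlap (log2 fold change -0.69, SE 0.26, 95% interval -1.28 to -0.096, limma adjusted p 0.524). YARS2, the tyrosyl enzyme, measured 23.7, 12.1, 17.8 and 19.5 TPM in shLAMP5 1 to 4, against 26.0 and 29.9 TPM in shNT 1 and 2. Again no shLAMP5 library reached the shNT libraries (log2 fold change -0.62, SE 0.27, limma adjusted p 0.554).

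MARS2, the mitochondrial methionyl enzyme, measured 14.6, 9.71, 9.41 and 14.6 TPM in shLAMP5 1 to 4, against 17.1 and 18.3 TPM in shNT 1 and 2 (log2 fold change -0.54, SE 0.24, limma adjusted p 0.564). The values in shLAMP5 2 and shLAMP5 3 were the low pair, and all 4 lay under both shNT libraries. AARS2, the alanyl enzyme, also had no overlap (log2 fold change -0.32, limma adjusted p 0.674). The other negative values ran from -0.51 (NARS2, asparaginyl) through WARS2 (-0.36), EARS2 (-0.31), SARS2 (-0.31), VARS2 (-0.22), IARS2 (-0.17), FARS2 (-0.15) and PARS2 (-0.084) to RARS2 (-0.056), with overlapping groups. TARS2 measured 33.0, 34.1, 29.9 and 33.8 TPM in shLAMP5 1 to 4, against 30.7 and 33.9 TPM in shNT 1 and 2, a narrow spread in both groups. Its log2 fold change was 0.017 (95% interval -0.39 to 0.43). CARS2 measured 70.2, 51.4, 40.7 and 72.5 TPM in shLAMP5 1 to 4, against 45 and 71.1 TPM in shNT 1 and 2, a spread within each group that exceeded the difference between them (log2 fold change 0.015, limma adjusted p 0.993).

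Whether the compartments differed in their response was not settled by these libraries. The cytosolic mean minus the mitochondrial mean, as log2(TPM + 1), was 2.15, 2.39, 2.27 and 2.16 in shLAMP5 1 to 4, against 2.27 and 2.09 in shNT 1 and 2, so the groups overlapped. The median log2 fold changes of the sets differed by 0.066 (cytosolic minus mitochondrial), and this value ran from 0.0059 without shLAMP5 1 to 0.16 without shNT 1. Of the 13 amino acids with a gene in each compartment, the cytosolic gene had the higher log2 fold change in 7, and the median of the 13 paired differences was 0.28. The widest separation was for tryptophan, where WARS1 had 0.36 and WARS2 -0.36.

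**Figure D3:**
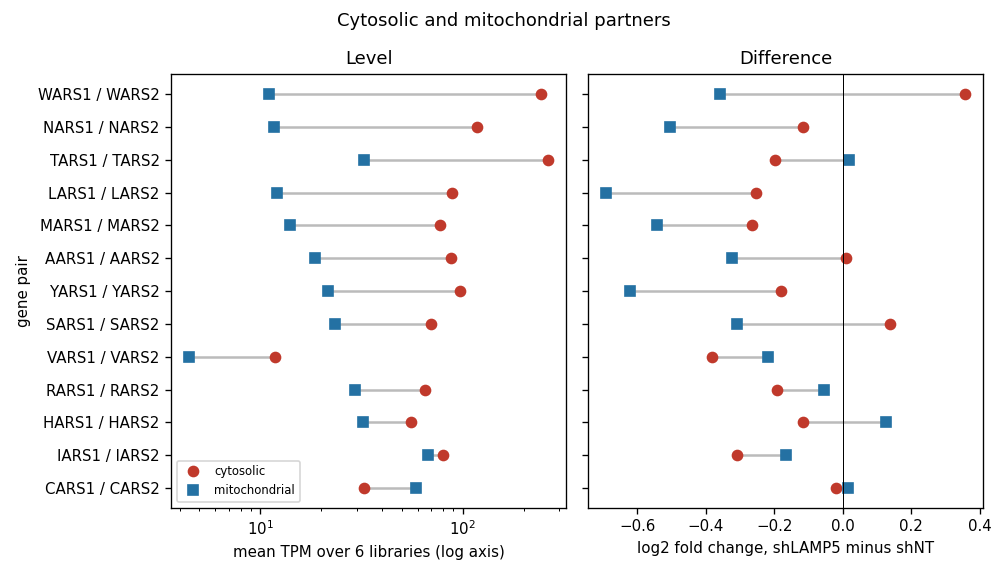
Left, mean TPM over 6 libraries (log axis) of each cytosolic gene and its mitochondrial partner; right, their log2 fold changes (shLAMP5 minus shNT). The cytosolic gene is the higher in 12 of 13 pairs by level and in 7 of 13 by log2 fold change.

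HARS1 and HARS2, the cytosolic and mitochondrial histidyl enzymes, are neighbours that are read in opposite directions from starts with 84 bases between them (chr5:140691371-140691454, plus strand, GRCh38.p14), shown here because these bases lie upstream of both genes.
HARS1 and HARS2: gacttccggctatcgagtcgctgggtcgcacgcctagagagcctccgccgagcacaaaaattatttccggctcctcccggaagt
HARS1 measured 59.5, 43.2, 52.9 and 60.6 TPM in shLAMP5 1 to 4, against 56.8 and 59.5 TPM in shNT 1 and 2 (log2 fold change -0.12, limma adjusted p 0.897). HARS2 measured 29.6, 28.1, 43.6 and 31.4 TPM in shLAMP5 1 to 4, against 30.3 and 29.3 TPM in shNT 1 and 2 (log2 fold change 0.13, limma adjusted p 0.898). In shLAMP5 3 HARS2 was high while HARS1 was not. Transcripts of the genes in GENCODE release 29 share 407 stretches of 31 bases when both strands are counted, 9.80% of those of HARS2, so reads there may be assigned to either gene unless strand is used. None of the other 12 pairs shared such a stretch.

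Among synthetases with the ATF4 word, AARS1 and CARS1 differed more between libraries of 1 group than between the groups. AARS1, the alanyl enzyme, measured 80.5, 111, 89.6 and 70.9 TPM in shLAMP5 1 to 4, against 95.4 and 78.1 TPM in shNT 1 and 2. CARS1, the cysteinyl enzyme, measured 26.8, 42.7, 34.9 and 25.9 TPM in shLAMP5 1 to 4, against 38.0 and 27.5 TPM in shNT 1 and 2. In both genes shLAMP5 2 was the highest library and shNT 1 the next, and the group means were nearly equal. The log2 fold changes were 0.010 for AARS1 (95% interval -0.52 to 0.54) and -0.018 for CARS1 (-0.63 to 0.59), and the sign of each turned under other settings.

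MARS1, the methionyl enzyme, measured 70.3, 102, 57.9 and 62.0 TPM in shLAMP5 1 to 4, against 91.3 and 80.7 TPM in shNT 1 and 2. GARS1, the glycyl enzyme, measured 87.4, 106, 82.2 and 76.6 TPM in shLAMP5 1 to 4, against 118 and 96.2 TPM in shNT 1 and 2. Both were again high in shLAMP5 2 among the shLAMP5 libraries and in shNT 1 among the shNT libraries (log2 fold change -0.26 for MARS1 and -0.28 for GARS1, limma adjusted p 0.793 and 0.705). Of the 8 genes that held the word, these 4 were higher in shLAMP5 2 than in the mean of the other shLAMP5 libraries and higher in shNT 1 than in shNT 2. NARS1, IARS1, TARS1 and YARS2 also held it and had values below 0 in both comparisons, which for TARS1 were -0.025 (shNT 1 minus shNT 2) and -0.098 (shLAMP5 2 minus the others). For the 8 holders the median of shLAMP5 2 minus the other shLAMP5 libraries was 0.13 on the log2(TPM + 1) scale, against -0.36 for the 24 genes whose window lacked the word, 0.18 for the 5 genes with no window and -0.28 for all genes tested. Both differences were above 0 for 1 of those 24, WARS1, for 2 of those 5, VARS2 and YARS1, and for 19.8% of all genes tested. Set against the medians of all genes tested in place of 0, both were higher for 5 of the 8 holders, now with TARS1. The same held for 4 of the 24 (SARS1, WARS1, PARS2 and RARS2) and for 3 of the 5 (AARS2, VARS2 and YARS1). The share of all genes above both medians was not computed. The libraries shLAMP5 2 and shNT 1 were singled out after values were seen, so these counts are a description.

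**Figure D4:**
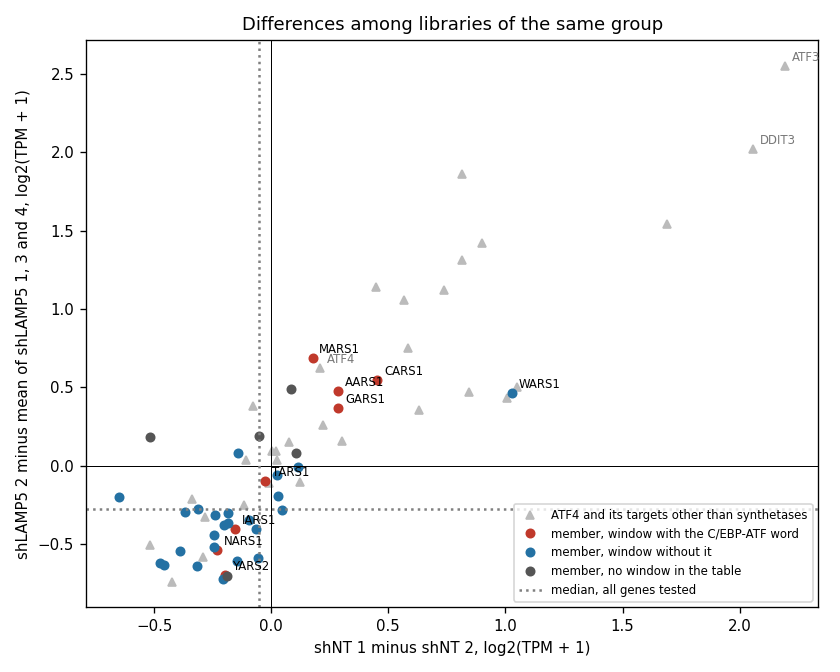
Each point is a gene: the horizontal axis is shNT 1 minus shNT 2 and the vertical axis shLAMP5 2 minus the mean of shLAMP5 1, 3 and 4, both on log2(TPM + 1), with dotted lines at the medians of all genes tested. AARS1, CARS1, GARS1 and MARS1 lie above 0 on both axes, NARS1, IARS1 and YARS2 lie below both dotted lines, and TARS1 lies between 0 and the dotted lines.

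Of 31 tested genes of the ATF4 programme outside the synthetases, 21 (67.7%) had both within-group differences above 0, against 19.8% of all genes. The differences were shNT 1 minus shNT 2 and shLAMP5 2 minus the mean of the other shLAMP5 libraries. These libraries were singled out after values were seen, so the counts are a description and no independent support. ATF4 measured 268, 404, 271 and 248 TPM in shLAMP5 1 to 4, against 363 and 314 TPM in shNT 1 and 2 (log2 fold change -0.21, limma adjusted p 0.820). Taken singly, 22 of the 31 (71.0%) were higher in shNT 1 than in shNT 2, against 43.0% of all genes, and 13 (41.9%) were higher in shLAMP5 2 than in each other shLAMP5 library, against 18%. DDIT3, a stress transcription factor chosen after its values were seen, measured 42.8, 146, 62.9 and 15.9 TPM in shLAMP5 1 to 4, against 65.6 and 15 TPM in shNT 1 and 2. ASNS, asparagine synthetase, chosen in the same way, measured 22.7, 49.7, 26.7 and 17.6 TPM in shLAMP5 1 to 4, against 39.8 and 28.9 TPM in shNT 1 and 2. Between the groups the list was balanced, with 15 positive and 16 negative values and a median log2 fold change of -0.0071. CEBPB and the cystine transporter SLC7A11 had 0.93 and 0.83, the translation inhibitor EIF4EBP1 and the serine-to-glycine enzyme SHMT2 had -0.55 and -0.47, and none passed the test.

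The 13 ATF4-linked synthetases had a median log2 fold change of -0.20, with 10 negative, and the 6 other cytosolic subunits had -0.35, with all 6 negative. In the 6 others shLAMP5 2 was the lowest of all libraries for every gene, against 4 of the 13 and 44.1% of all genes tested. The 4 were EPRS1, IARS1, LARS1 and NARS1. VARS1 measured 10.9, 11.7, 7.79 and 12.3 TPM in shLAMP5 1 to 4, against 11.6 and 17.0 TPM in shNT 1 and 2, with shLAMP5 3 the lowest and shNT 2 the highest. The part of the low values of shLAMP5 2 over all genes in these counts was not tested.

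WARS1, the tryptophanyl enzyme, which interferon gamma also induces, had the widest range of the 37 members on the log2(TPM + 1) scale. It measured 192, 321, 353 and 186 TPM in shLAMP5 1 to 4, against 281 and 137 TPM in shNT 1 and 2. The libraries shLAMP5 2, shLAMP5 3 and shNT 1 were high and the other 3 low, so the groups overlapped (log2 fold change 0.36, SE 0.38, 95% interval -0.51 to 1.23, limma adjusted p 0.806). Without shNT 2 the log2 fold change was -0.16 and without shNT 1 it was 0.87. ISG15, an interferon-stimulated gene named after its values were seen, was high in the same libraries, with 23.9, 78.6, 74.1 and 36.9 TPM in shLAMP5 1 to 4 against 72.0 and 21.5 TPM in shNT 1 and 2. IFI6 was not, at 86.2, 50.7, 57.0 and 96.3 TPM in shLAMP5 1 to 4 against 20.5 and 10.8 TPM in shNT 1 and 2 (log2 fold change 2.16, limma adjusted p 0.252), and the value for GBP2 was 1.36 (limma adjusted p 0.578). All 5 interferon genes that passed the filter, of 7 listed, had positive values, against 49.3% of all genes tested. The smallest was 0.0059 for IRF1, and the sign of ISG15 (0.27) turned under other settings. The WARS1 window held TTCNNNGAA, the core of the interferon gamma-activated site, a word added after the values were seen and searched on both strands. WARS1 was 1 of 5 such members among the 32 with a window (15.6%), against 9.38% of all genes. The other holders, CARS1, PARS2, TARS1 and WARS2, had negative log2 fold changes of -0.018, -0.084, -0.20 and -0.36. A link of the word to the values was not tested.
WARS1 (chr14:100375470-100375499, minus, GRCh38.p14): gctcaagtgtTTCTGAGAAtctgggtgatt

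**Figure D5:**
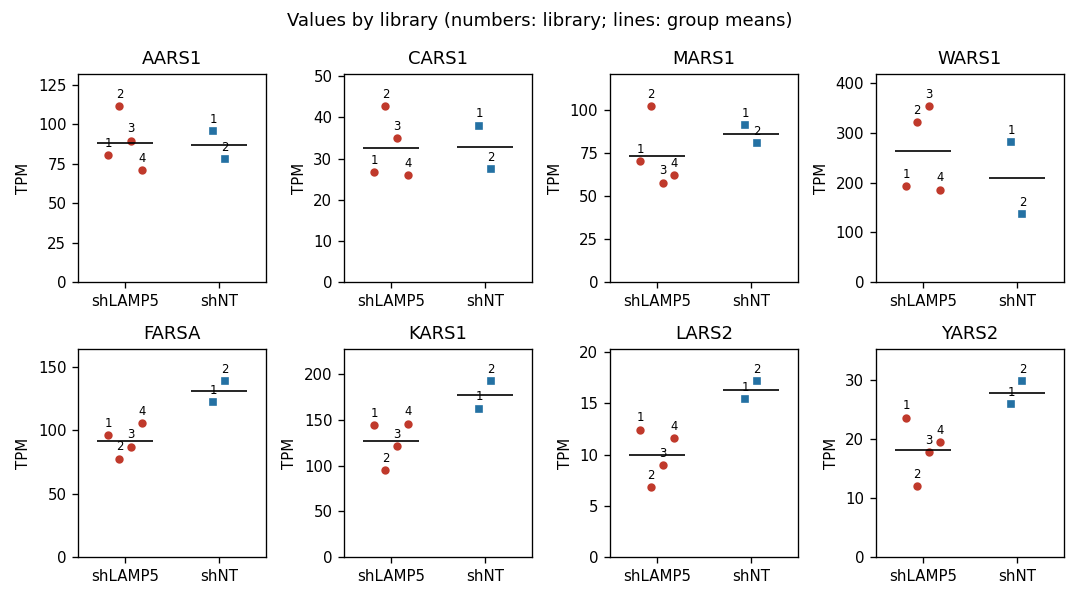
TPM of 8 members in each library (red circles shLAMP5, blue squares shNT, numbered by library; lines are group means). AARS1, CARS1, MARS1 and WARS1 overlap between the groups, while FARSA, KARS1, LARS2 and YARS2 have all 4 shLAMP5 values below both shNT values.

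Genes that act beside the synthetases also leaned lower in shLAMP5, and none passed the adjusted threshold. Of 53 tested genes of transfer RNA maturation and modification, 50 had negative values (median log2 fold change -0.29), and for 20 (37.7%) no shLAMP5 value reached either shNT value, against 13.5% of all genes. WDR4, the partner of the METTL1 transfer RNA methyltransferase, had -0.87 and YRDC, which acts in threonylcarbamoyl modification, -0.83 (limma adjusted p 0.501 and 0.491). YRDC measured 14.5, 11.4, 10.5 and 15.8 TPM in shLAMP5 1 to 4, against 22.8 and 24.6 TPM in shNT 1 and 2, with a clear gap between the groups. ELAC1, a transfer RNA end-processing nuclease, and ELP3, of the Elongator complex, had 0.20 and 0.12.

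For quality control and special routes of charging, 9 of 10 listed genes were tested and 6 had negative values. MTFMT, which formylates the mitochondrial initiator methionyl-tRNA, measured 6.87, 3.92, 6.0 and 6.24 TPM in shLAMP5 1 to 4, against 8.93 and 9.72 TPM in shNT 1 and 2 (log2 fold change -0.63, limma adjusted p 0.524). Like MARS2, which supplies that transfer RNA, it did not overlap between the groups. SEPSECS, which completes selenocysteine on its transfer RNA, had 0.36. TARS3, a threonyl-tRNA synthetase-like gene, had 0.19, and DTD1, which removes D-amino acids, had -0.34. Every shLAMP5 value lay above both shNT values for SEPSECS, 1 of the 9 tested (11.1%), against 8.25% of all genes. Every shLAMP5 value lay below both for 2 (22.2%), MTFMT and DTD1, against 13.5%.

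Of 15 mitochondrial translation factors, 11 had negative values (median log2 fold change -0.20). The elongation factor GFM1 and the recycling factor MRRF had -0.49 and -0.38, and the release factor MTRF1L and the initiation factor MTIF3 had 0.26 and 0.17. Of 9 cytosolic elongation and termination genes, 7 had negative values. EIF5A and EEF2K had -0.51 and -0.55, while EEF1A1, which delivers charged transfer RNA to the ribosome, and EEF2 had 0.066 and 0.023. Of 14 genes of amino acid sensing and eIF2 control, 9 had negative values. EIF2AK4 had 0.0023, EIF2AK2 0.31 and the eIF2 phosphatase subunit PPP1R15A 0.53, and the exchange factor subunits EIF2B1 and EIF2B3 had -0.52 and -0.53. MYC measured 256, 143, 165 and 273 TPM in shLAMP5 1 to 4, against 243 and 305 TPM in shNT 1 and 2, and overlapped between the groups (log2 fold change -0.43, limma adjusted p 0.690). All 5 genes of the list with MYC had negative values, and in it the nucleolar genes NCL and NPM1 had -0.61 and -0.48 (limma adjusted p 0.520 for each).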

How the data were processed

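RNA of 6 MOLM-13 libraries was sequenced on a HiSeq instrument after a TruSeq RNA preparation, per the labels' protocols. Groups were taken from the titles. The authors deposited 1 table, read as TPM although it names no unit: values are not whole, and library totals lie between 897026 and 912565. Kallisto and the build hg19 are named in the submitters' processing notes. The sources used here do not give its version, transcript set, step to genes or strand handling. Since TPM carries no read number, depth is unknown and counting error cannot be stated.

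Genes were matched by Ensembl identifier. limma 3.58.1 (R 4.3.3, mean-variance trend) was fitted on log2(TPM + 1) for the genes that reached 1 TPM in 2 or more libraries. Group was the single term, and p-values were adjusted over all these genes by Benjamini-Hochberg, with a threshold of 0.05. A log2 fold change is the shLAMP5 mean minus the shNT mean on that scale, which understates changes of low genes. The code was tested on simulated data. Named genes were all members, LAMP5, ATF4, MYC, EIF2AK4 and, of each other list, the 2 with the smallest p in each direction. Values of each library are given for the 5 members lowest in p on each side, WARS1, HARS1, HARS2 and further members picked after their values were seen, as were DDIT3, ASNS and ISG15. The members and lists were chosen with earlier results of these data known, so no list was tested. Sequences are from RefSeq (GRCh38.p14) and were read with Python 3.11.15. Other pseudocounts, filters, scalings, weights, left-out libraries and a replicate block were tried. Dropping shNT 1 and shLAMP5 2 together, and sums and overlaps after median scaling, were added after seeing the data. Median scaling divides each library by its median ratio to the gene means. The comparisons of shNT 1 with shNT 2 and of shLAMP5 2 with the other shLAMP5 libraries were also chosen after seeing the data.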

Additional observations from a re-analysis of the deposited data

Results flagged for a closer look

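In the 4 shLAMP5 libraries, 1 value of FARS2, the mitochondrial phenylalanyl enzyme, and 1 of ATF4 lay far from the rest, by a test of the gap to the nearest library against the whole range (Dixon's 95% critical value). FARS2 was 9.24 TPM in shLAMP5 2, against 13.8 to 14.1 TPM in the other 3. ATF4 was 404 TPM in shLAMP5 2, against 248 to 271 TPM in the other 3. The test ran on 90 sets of 4 values, and chance alone sets apart about 1 in 20.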

How the results depend on the processing

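No member passed the adjusted threshold under any alternative run. Members with a negative log2 fold change numbered 27 (library weights) to 33 (without shLAMP5 3) of 37, and 29 of the 35 left by a minimum of 10 TPM. The cytosolic median ran from -0.26 to -0.15 and the mitochondrial one from -0.37 to -0.18 when 1 library was left out. Their difference, 0.066, was -0.049 with library weights and 0.0059 to 0.16 with 1 library left out. Members with an unadjusted p under 0.05 in the lower direction numbered 7 (18.9%) under median scaling and under quantile normalization, against 6.14% and 6.43% of all genes, and 0 without shNT 1, without shNT 2 or without shLAMP5 3. Over all genes, limma called 14 with no filter, 210 with library weights and 16 with the replicate block, against 0 otherwise. The LAMP5 level passed with library weights (-1.40). The 2 shNT libraries and the unknown depth limit every comparison. The numbers in the titles do not pair the libraries by any source. Deviations from the group means correlated at -0.52 and -0.47 for the shared numbers, and the block called 0 members.

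The sign turned for values that were not called, many of them near 0, and the cause was not tested. DDIT3, PPP1R15A, WARS1, ISG15 and LARS1 also turned, though their log2 fold changes were 0.65, 0.53, 0.36, 0.27 and -0.25. With library weights the log2 fold change was -0.18 for AARS1, 0.017 for HARS1, 0.048 for LARS1, 0.089 for NARS1, 0.061 for QARS1, 0.099 for IARS2, -0.051 for PPP1R15A, -0.30 for DDIT3 and -0.14 for ISG15. With the replicate block it was 0.064 for CARS1, -0.048 for HARS2, 8.62e-06 for RARS2, 0.019 for VARS2, -0.10 for ELP3, -0.15 for EEF1A1, -0.24 for EEF2 and -0.069 for EIF2AK4. Median scaling gave 0.029 for CARS1 and 0.017 for QARS1, quantile normalization 0.030 and 0.059, and a pseudocount of 0.1 gave -0.0010 for EIF2AK4. Without shNT 1 and shLAMP5 2 together, CARS1 had 0.072, CARS2 -0.26, RARS2 0.0074 and TARS2 -0.074.

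With 1 library left out at a time, where an arm of 1 library was assumed to vary like the other, values ran from -0.13 to 0.15 for AARS1, -0.24 to 0.21 for CARS1, -0.23 to 0.020 for NARS1, -0.19 to 0.13 for QARS1, -0.16 to 0.87 for WARS1, -0.31 to 0.34 for CARS2, -0.35 to 0.043 for FARS2, -0.0082 to 0.20 for HARS2, -0.40 to 0.064 for IARS2 and -0.053 to 0.088 for TARS2. They ran from -0.0041 to 0.39 for TARS3, -0.031 to 0.14 for EEF1A1, -0.10 to 0.13 for EEF2, -0.048 to 1.10 for PPP1R15A, -0.15 to 0.12 for EIF2AK4, -0.37 to 1.68 for DDIT3 and -0.58 to 1.11 for ISG15.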
